A study of Homo sapiens with 8 samples.

Results

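The EGR, NR4A and IER immediate early genes and the transcription factor gene SRF were followed across all 8 arrays of a study of the prostate cancer cell lines LNCaP and 22Rv1. The members are EGR1, EGR2, EGR3, NR4A1, NR4A2, NR4A3, IER2, IER5 and SRF, taken as every probe set whose only symbol in the annotation of the array is one of these names. The rule gave 17 probe sets for 8 of the 9 genes, among 19775 genes with a probe set of their own, and EGR2 was not analysed here. The LNCaP line was taken from a lymph node metastasis of prostate cancer, and the CWR22 xenograft of a human prostate tumour gave rise to 22Rv1. Each line was grown on 4 plates, and every plate gave 1 array. A plate was left untreated and a second was kept for 4 hours in 10 mM caffeine, which the study used to inhibit nonsense-mediated mRNA decay (NMD), the pathway that removes mRNAs with premature stop codons. The remaining plates had the same caffeine step, were washed, and went into medium with the transcription blocker actinomycin D (2 μg/ml), together with 10 mM caffeine or alone, for a further 4 hours. All groups share the serum-containing culture medium, and no group has a second plate, so no value below has a replicate within a line and treatment. The untreated and caffeine plates were harvested 4 hours earlier than the actinomycin D plates, and actinomycin D without a preceding caffeine step was not analysed here.

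Immediate early genes are transcribed within minutes of a stimulus, without new protein synthesis, and most of their mRNAs are short-lived. SRF, together with ternary complex factors phosphorylated by the ERK cascade, switches on many of them through a DNA element called the CArG box, and CREB does so through the cAMP response element (CRE). The EGR genes encode zinc finger transcription factors, the NR4A genes encode orphan nuclear receptors, and EGR1 has been studied in prostate cancer as a growth-associated factor.

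The promoter sequences are shown because these elements are the known entry points of the signals to the members. The 250 bases before each annotated start were read from RefSeq windows of GRCh38.p14, of which 35116 are given in all and 11 belong to 7 of the 9 members, with none read for EGR3 and NR4A2. The CArG box, 10 bases with an A/T-rich core, was found in 1.16% of all windows, and a pair or more of them in 0.0313%. The core of the CRE, TGACG on either strand, was found in 21.2% of windows, and the EGR binding site, GCGGGGGCG or GCGTGGGCG on either strand, in 5.37%. A core inside the full CRE, TGACGTCA, counts as a core match, and the full element was in none of the 11 member windows, against 1.65% of all. EGR1 had 2 CArG boxes and 2 CRE cores, and the SRF window at its first annotated start had 2 CArG boxes, 1 EGR site and 1 CRE core. NR4A3 had 4 CRE cores, and the window of IER5 and both windows of NR4A1 held none of these letters. Below, all 4 windows are on the plus strand and capitals mark the CArG boxes, CRE cores and EGR site. The EGR1 window is chr5:138465229-138465478, that of NR4A3 is chr9:99821635-99821884, that of SRF is chr6:43171019-43171268 and that of IER5 is chr1:181088450-181088699.
EGR1: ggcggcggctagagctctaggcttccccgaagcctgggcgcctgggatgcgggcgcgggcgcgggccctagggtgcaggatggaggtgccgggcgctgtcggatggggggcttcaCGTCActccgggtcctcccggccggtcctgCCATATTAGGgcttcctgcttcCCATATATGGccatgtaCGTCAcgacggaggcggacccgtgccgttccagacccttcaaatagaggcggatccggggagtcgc
NR4A3: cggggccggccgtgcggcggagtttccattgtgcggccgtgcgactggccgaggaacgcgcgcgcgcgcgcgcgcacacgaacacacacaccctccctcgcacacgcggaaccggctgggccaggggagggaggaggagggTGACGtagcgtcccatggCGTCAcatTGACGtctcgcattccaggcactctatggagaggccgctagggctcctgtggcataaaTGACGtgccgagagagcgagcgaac
SRF: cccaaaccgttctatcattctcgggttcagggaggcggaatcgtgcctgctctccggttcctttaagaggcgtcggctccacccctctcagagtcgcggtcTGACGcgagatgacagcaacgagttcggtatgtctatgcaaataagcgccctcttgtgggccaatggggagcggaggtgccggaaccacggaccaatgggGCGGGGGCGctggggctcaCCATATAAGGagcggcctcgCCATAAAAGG
IER5: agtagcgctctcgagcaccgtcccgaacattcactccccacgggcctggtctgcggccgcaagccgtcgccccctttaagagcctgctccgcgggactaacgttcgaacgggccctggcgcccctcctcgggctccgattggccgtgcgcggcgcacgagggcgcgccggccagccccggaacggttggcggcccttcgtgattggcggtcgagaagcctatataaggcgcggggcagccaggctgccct
A match is a description of letters and says nothing about binding in these cells.

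**Figure D1:**
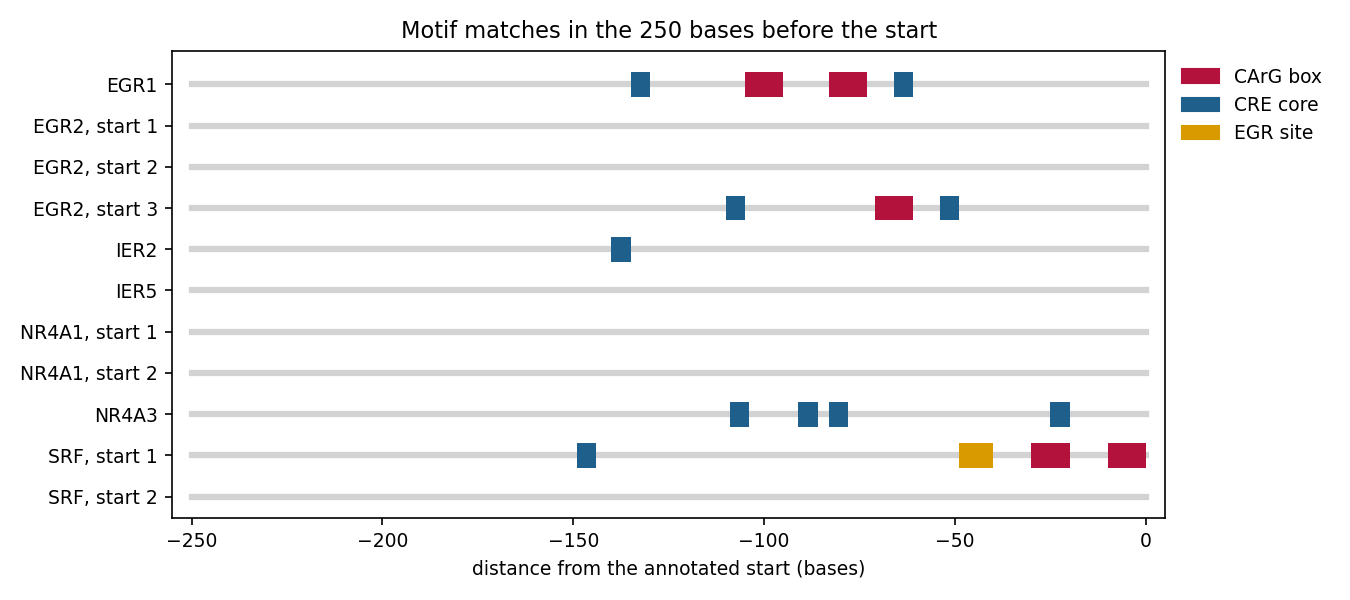
Matches to the CArG box, the CRE core and the EGR site in the 250 bases before each annotated start of the members, with distance from the start in bases on the x axis and 1 grey line per start. EGR1 and the first start of SRF carry 2 CArG boxes each, the third start of EGR2 carries 1, NR4A3 carries 4 CRE cores, and IER5 and NR4A1 carry none of the motifs.

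The deposited values are log2 signals, normalized so that every array holds the same distribution, and on this scale a difference of 1 is a fold change of 2. A signal is thus relative to the other transcripts on the same array, and it cannot show a fall of the whole mRNA pool. A signal of 4, reached by 38.4% of probe sets on every array, was taken as the floor of detection. Of the 17 member probe sets, 14 reached it on an array, all 14 of them in 22Rv1 and 6 in LNCaP. Control RNAs added before labelling (poly-A controls) had means of 6.60 to 8.40 and were higher on the actinomycin D arrays, which would move every difference between actinomycin D alone and caffeine down by 1.55 in LNCaP and 1.19 in 22Rv1 if the arrays were scaled on them. The probe sets of 18S rRNA averaged 11.7 when LNCaP had received actinomycin D with caffeine and 4.09 to 7.08 on the other 7 arrays. The difference between 3′ and 5′ probe sets of ACTB, a sign of RNA integrity, was 1.20 to 2.14 in LNCaP and 0.91 to 1.43 in 22Rv1. All 5 prostate luminal markers with a probe set (KLK2, KLK3, HOXB13, FOLH1 and TMPRSS2) and all 4 epithelial markers were above the floor on every array, while PTPRC, CD3E, CD14, PECAM1 and COL1A2 were under it on every array. The stromal markers were mixed, with COL1A1 at 5.29 to 8.65 and DCN at 2.27 to 7.06. COL1A1 went from 5.86 to 8.65 after caffeine in 22Rv1, and its part in the results was not tested.

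EGR1, a zinc finger factor induced by growth factors and stress, was under the floor on all LNCaP arrays. In 22Rv1 all its probe sets except 201693_s_at were above the floor on every array. Its representative probe set (201694_s_at, the one with the highest mean) read 2.95 untreated, 3.0 after caffeine, 2.88 after actinomycin D with caffeine and 2.92 after actinomycin D alone in LNCaP. In 22Rv1 the same treatments gave 6.95, 11.85, 6.90 and 7.40. The caffeine array of 22Rv1 thus stood 4.90 above the untreated one, and the other 3 arrays of that line lay within 0.50 of each other. The other EGR1 probe sets had the same order of caffeine over the rest, with 6.11, 10.33, 5.18 and 5.78 for 227404_s_at and 3.04, 8.07, 2.37 and 2.37 for 201693_s_at in 22Rv1.

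EGR3, a related factor that is itself a target of early signalling in neurons and lymphocytes, differed from EGR1 in what followed the caffeine step. In LNCaP its single probe set (206115_at) stayed between 2.53 and 2.67, under the floor. In 22Rv1 it read 2.65 untreated, 6.33 after caffeine, 5.44 after actinomycin D with caffeine and 6.70 after actinomycin D alone. The untreated array was under the floor and the 3 treated arrays were above it, with the highest signal 4 hours into actinomycin D. The difference after caffeine was 3.68, or 2.33 when counted from the floor.

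NR4A1 (NUR77), a nuclear receptor that acts without a known natural ligand, was detected in both lines. Its representative (202340_x_at) read 6.34, 5.82, 5.81 and 4.89 in LNCaP in the order untreated, caffeine, actinomycin D with caffeine and actinomycin D alone. In 22Rv1 it read 7.45, 11.15, 8.28 and 8.52 in the same order. Its caffeine difference was -0.51 in LNCaP and 3.71 in 22Rv1, and every 22Rv1 array was above every LNCaP array. A second probe set (211143_x_at) read 4.98, 4.84, 4.86 and 5.12 in LNCaP. In 22Rv1 it read 5.55, 7.03, 5.47 and 6.04, and it gave the same highest array in 22Rv1 with a smaller difference of 1.48. The suffix _x_at marks probe sets whose probes can match other sequences, and the third, 210226_at, was under the floor on all arrays.

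NR4A2 (NURR1), the family member known for its role in dopaminergic neurons and as a cAMP target, was under the floor in untreated 22Rv1. Its probe sets were above it on the 3 treated arrays of that line, except 204621_s_at, which was at 3.86 after actinomycin D alone. The representative (216248_s_at) read 2.38, 3.27, 3.11 and 2.80 in LNCaP, all under the floor. In 22Rv1 it read 2.81 untreated, 8.50 after caffeine, 6.48 after actinomycin D with caffeine and 5.60 after actinomycin D alone. The caffeine difference was 5.69 (4.50 counted from the floor), against 4.90 for the EGR1 representative, which was above the floor on all 22Rv1 arrays. The other probe sets gave caffeine differences of 5.49 (204622_x_at) and 4.27 (204621_s_at) in 22Rv1, or 3.88 and 3.10 counted from the floor, and were under the floor on all LNCaP arrays.

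NR4A3 (NOR1) was the only member whose highest LNCaP signal was on an actinomycin D array and above the floor there while under it untreated. Its representative (209959_at) read 3.18 untreated, 3.75 after caffeine, 5.49 after actinomycin D with caffeine and 4.47 after actinomycin D alone in LNCaP. In 22Rv1 it read 3.59, 6.82, 5.30 and 5.62 in the same order, with the highest signal after caffeine and a difference of 3.22 (2.82 counted from the floor). A second probe set, 207978_s_at, read 2.34, 6.19, 3.38 and 3.88 in 22Rv1 and stayed at 2.31 to 2.35 in LNCaP, so the LNCaP pattern was seen with 1 probe set, on the array with the high 18S rRNA signal. The third probe set, 216979_at, was under the floor on all arrays.

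IER2, a small nuclear protein gene of the immediate early response, was detected on all arrays and was lower on the actinomycin D arrays of both lines. In LNCaP its single probe set (202081_at) read 9.39 untreated, 9.11 after caffeine, 7.92 after actinomycin D with caffeine and 7.36 after actinomycin D alone. The 22Rv1 arrays gave 10.70, 11.97, 9.66 and 9.17. Both actinomycin D arrays were below both other arrays in either line, and the 22Rv1 signal was above the LNCaP signal under every treatment.

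IER5, a related gene known to modulate heat shock factor activity, had its lowest signal after actinomycin D alone in both lines. The LNCaP arrays gave 7.60, 7.79, 7.22 and 5.63 for its single probe set (218611_at). For 22Rv1 the signals were 8.31, 7.61, 8.07 and 6.80. It was the only member with a lower signal after caffeine in 22Rv1, at -0.70, and in LNCaP it differed by 0.19. The 3 other arrays of each line lay within 0.57 of each other in LNCaP and 0.70 in 22Rv1.

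SRF itself, the factor that binds CArG boxes, varied little in 22Rv1 and was lower on the actinomycin D arrays in LNCaP. Its representative (202401_s_at) read 6.96, 6.96, 6.13 and 5.53 in LNCaP. The 22Rv1 signals were 7.41, 8.07, 7.76 and 8.10. The caffeine differences were -0.01 and 0.66, against 0.05 and 4.90 for EGR1, the other gene with a pair of CArG boxes in the windows shown above. A second probe set, 202400_s_at, was under the floor on all arrays.

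**Figure D2:**
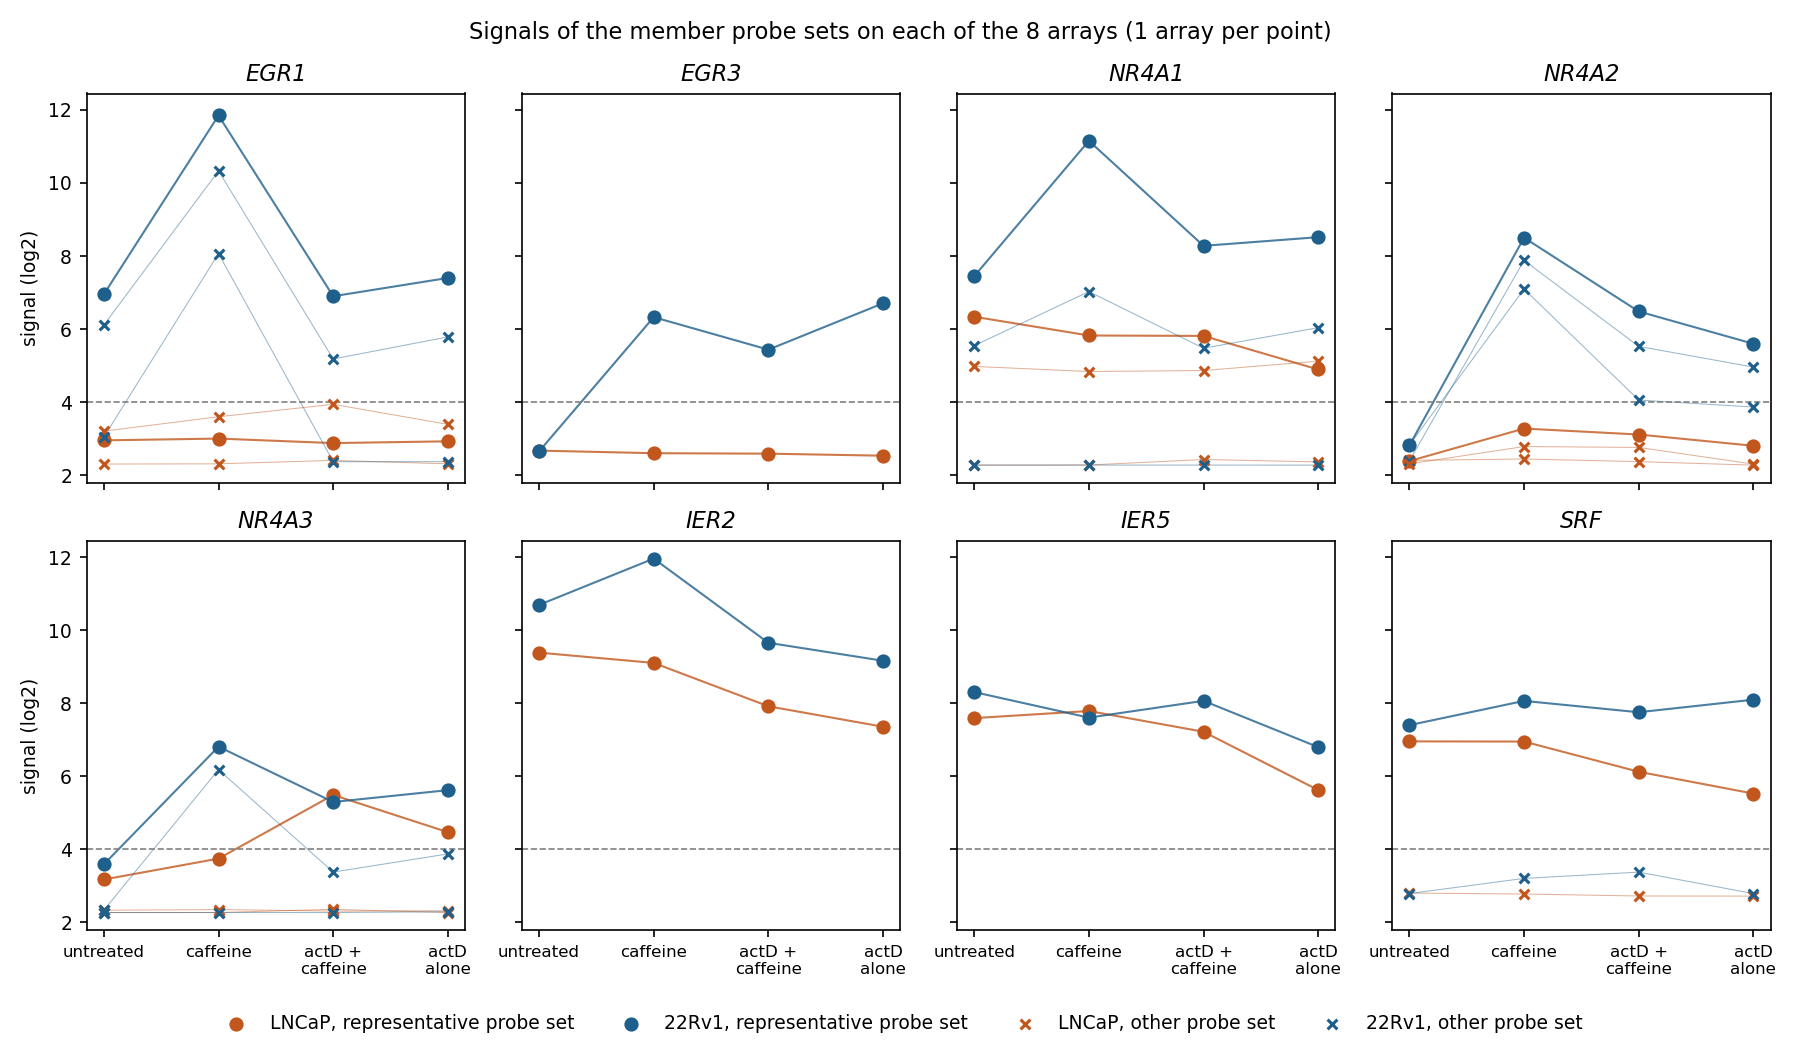
Log2 signal (y axis) of every member probe set under the 4 treatments (x axis; actD is actinomycin D), 1 array per point, with LNCaP in orange and 22Rv1 in blue. Filled circles are the representative probe set of a gene, crosses are its other probe sets, and the dashed line is the floor of 4; in 22Rv1 the caffeine array is the highest for EGR1 at 11.85, NR4A1 at 11.15, NR4A2 at 8.50, NR4A3 at 6.82 and IER2 at 11.97.

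Accumulation, the caffeine signal minus the untreated signal, asks which mRNAs build up during the caffeine step. In 22Rv1 EGR1, EGR3 and the 3 NR4A genes accumulated by 3.22 to 5.69 and IER2 by 1.27, while in LNCaP no detected member reached 1. Of the 14 member probe sets detected in 22Rv1, 12 were higher by at least 1, against 9.23% of the 21933 detected probe sets in all. Because 7 of the 14 were under the floor untreated and could be detected only through the caffeine array, the count was also taken over the 7 that reached the floor untreated, and 5 of them, from EGR1, NR4A1 and IER2, were higher by at least 1 against 7.15% of 20975, with medians of 1.48 for the 7 and -0.06 for all. Of the 14, 0 were lower by at least 1, against 7.79%. In LNCaP 0 of 5 detected member probe sets were higher by at least 1, against 6.36% of probe sets, and 0 were lower, against 5.24%. Among the 20017 probe sets at or above the floor on both arrays of 22Rv1, 2 of EGR1 stood at positions 7 and 11 from the highest difference and the representative of NR4A1 at 22.

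**Figure D3:**
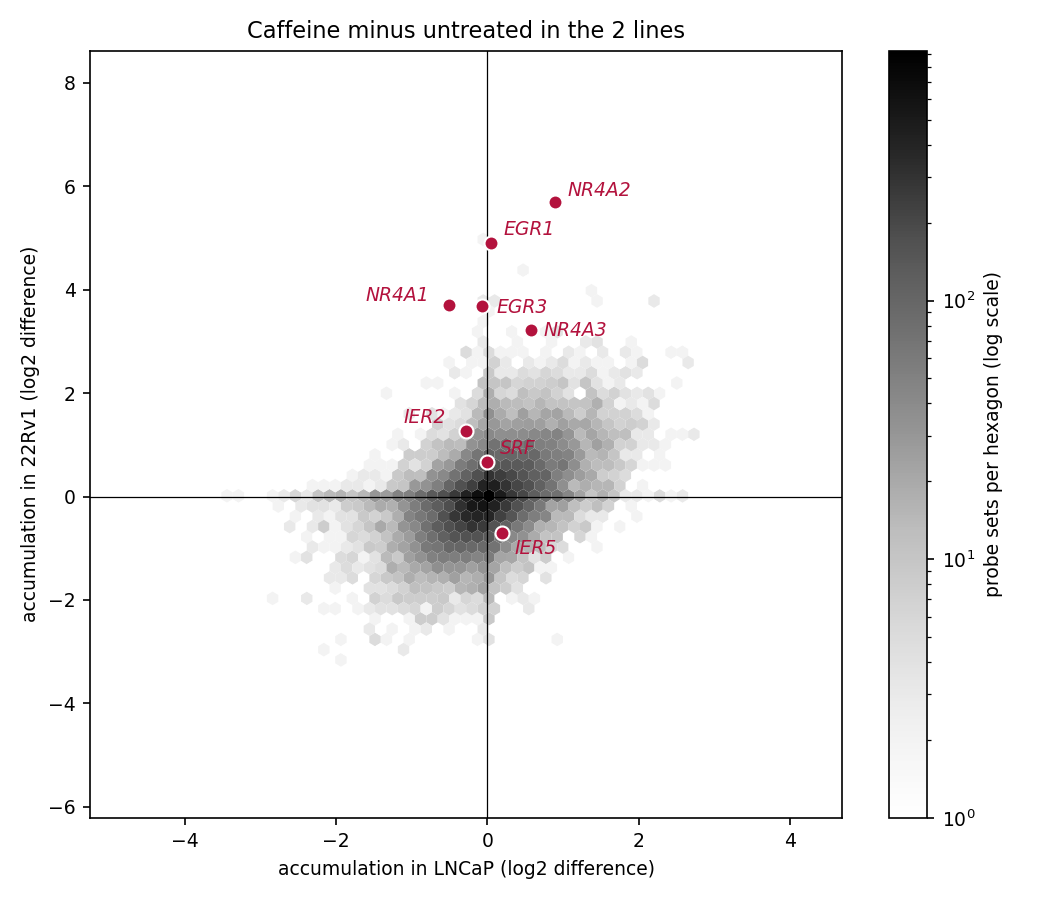
Accumulation (caffeine minus untreated, log2) in LNCaP on the x axis and 22Rv1 on the y axis, with all detected probe sets as grey hexagons and the representatives of the members as red points. NR4A2 at 5.69, EGR1 at 4.90, NR4A1 at 3.71, EGR3 at 3.68 and NR4A3 at 3.22 lie far up the 22Rv1 axis with LNCaP differences of -0.51 to 0.89, and IER5 and SRF lie within 0.70 of 0 on both axes.

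With the lines taken as the replicates of a treatment, a response common to both was tested by limma over 21453 probe sets with a mean signal of at least 4. Among these were 9 member probe sets of 7 genes, and 3 of the 9, for EGR1 and NR4A2, passed the filter through 22Rv1 alone. After caffeine 0 of the 9 member probe sets rose at an adjusted p under 0.05, against 0.0420% of all tested. Of the 9, 2 had an unadjusted p under 0.05, against 3794 of the 21453 tested. The estimate for NR4A2 was 3.29 (SE 1.01, limma adjusted p = 0.192), that for NR4A3 was 1.90 (SE 0.73, limma adjusted p = 0.266) and that for EGR1 was 2.47 (SE 1.20, limma adjusted p = 0.353). The error of these estimates holds the gap between the lines, and whether the lines differ in their response cannot be tested with 1 array each. Without the caffeine array of 22Rv1 the estimates were 1.78 for NR4A2, 0.59 for NR4A3 and 0.13 for EGR1, and without that of LNCaP they were 4.81 for NR4A2, 3.20 for NR4A3 and 4.81 for EGR1.

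The signal after the actinomycin D step, set against the caffeine array, shows which of the accumulated mRNAs were lost once transcription was blocked. The caffeine array enters both this difference and accumulation, so a high caffeine array alone would set them in opposite directions. In 22Rv1 after actinomycin D alone, which also withdraws caffeine, EGR1 was lower at -4.45, NR4A2 at -2.91, IER2 at -2.80, NR4A1 at -2.64 and NR4A3 at -1.19, while EGR3 differed by 0.38 and SRF by 0.03. The last 2 directions turn when the arrays are scaled on the poly-A controls, to -0.81 for EGR3 and -1.16 for SRF. Over the probe sets detected in 22Rv1, 10 of 14 of the members were lower by at least 1, against 9.39% of all. Of these 10, 3 probe sets (201693_s_at of EGR1, 204621_s_at of NR4A2 and 207978_s_at of NR4A3) were detected through the caffeine array alone and had to be lower. Over the probe sets at or above the floor on both arrays, a count added after seeing the data, 7 of 11 of the members were lower by at least 1 against 7.51% of 20004.

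Compared with the untreated array, EGR1 in 22Rv1 differed by 0.45 after actinomycin D alone (-0.46 with scaling on the poly-A controls), whereas EGR3 was still higher by 4.06, NR4A2 by 2.79 and NR4A3 by 2.03. Counted from the floor, the last 3 values were 2.70, 1.60 and 1.62, and with scaling on the poly-A controls they were 3.15, 1.88 and 1.13. NR4A1 was higher by 1.07, or 0.17 with that scaling. These are values of the representatives. After actinomycin D alone 204621_s_at of NR4A2 and 207978_s_at of NR4A3 were under the floor, at 3.86 and 3.88. The NR4A2 probe set 204622_x_at was above it at 4.96. IER2 and IER5 were below their untreated signals, at -1.53 and -1.51. Thus EGR1 ended near its untreated signal, EGR3 well above it, and IER2 and IER5 below it.

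In LNCaP 3 of 6 detected member probe sets were lower by at least 1 after actinomycin D alone, against 11.0% of all, namely IER5 at -2.16, IER2 at -1.75 and SRF at -1.42. NR4A1 was lower at -0.93, while its second probe set 211143_x_at was higher by 0.28. NR4A3 was higher by 0.72, a direction that turns to -0.83 with scaling on the poly-A controls. In limma 1 of the 9 member probe sets fell in both lines together, against 1.86% of all tested. This was IER2, with an estimate of -2.27 (SE 0.38, limma adjusted p = 0.0476). Its call was lost with variances estimated robustly, where 347 of all 21453 probe sets fell, and without the mean filter, where 4 of 54675 did. The call of IER2 was also lost when any 1 of the 8 arrays was left out, with estimates of -2.89 to -1.65. Those fits have 2 residual degrees of freedom instead of 3, and fewer probe sets of the whole array passed in each. IER5 had an estimate of -1.49 (SE 0.34, limma adjusted p = 0.0877) and did not pass.

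When caffeine was kept together with actinomycin D, EGR1 again had the largest difference from the caffeine array in 22Rv1, at -4.95, followed by NR4A1 at -2.88, IER2 at -2.31, NR4A2 at -2.02, NR4A3 at -1.52 and EGR3 at -0.89. IER5 differed by 0.46 (-0.31 with scaling on the poly-A controls) and SRF at -0.31. Of the member probe sets detected in 22Rv1, 11 of 14 were lower by at least 1, against 6.33% of all, and 2 of the 11 (201693_s_at and 207978_s_at) were detected through the caffeine array alone. Over those at or above the floor on both arrays, 9 of 12 were lower by at least 1 against 4.97% of all. In LNCaP 1 of 6 was, IER2 at -1.19, against 9.33%, while NR4A3 was higher by 1.74 (0.56 with that scaling) on the array with the high 18S rRNA signal, whose part was not tested. In limma 0 of the 9 fell, against 0.00% of all tested. An unadjusted p under 0.05 was reached by 1 of the 9, against 2628 of the 21453 tested. This was IER2 with -1.75 (SE 0.38, limma adjusted p = 0.203).

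Degradation, in the study's term, is the signal after actinomycin D with caffeine minus that after actinomycin D alone, and asks which mRNAs are kept by caffeine while transcription is blocked. IER5 was the only member higher by at least 1 in both lines, by 1.60 in LNCaP and 1.27 in 22Rv1. NR4A3 was higher by 1.02 in LNCaP (1 probe set), and EGR3 was lower at -1.27 in 22Rv1 (-0.85 with scaling on the poly-A controls). IER2 differed by 0.56 in LNCaP and 0.49 in 22Rv1. NR4A2 differed by 0.89 in 22Rv1 (0.57 and 0.19 for its other probe sets), and its LNCaP difference of 0.31 lay under the floor. In LNCaP NR4A1 differed by 0.92 (-0.26 for its second probe set 211143_x_at) and SRF by 0.60. In 22Rv1 EGR1 was at -0.50, SRF at -0.34, NR4A3 at -0.32 and NR4A1 at -0.24, and with scaling on the poly-A controls EGR1 was at -0.08 and the other 3 turned to values of 0.08 to 0.19. Counted over detected member probe sets, 2 of 6 were higher by at least 1 in LNCaP against 5.29% of all, and 1 of 12 in 22Rv1 against 3.74%. The LNCaP values rest on the array with the high 18S rRNA signal, and the 22Rv1 value of IER5 does not.

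In limma 0 of the 9 member probe sets passed for degradation, against 0.00% of all tested. Of the 9, 1 had an unadjusted p under 0.05, against 1712 of the 21453 tested. This was IER5 with 1.43 (SE 0.34, limma adjusted p = 0.410). With a variance trend 7 probe sets of the whole array were higher, 0 of them members.

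**Figure D4:**
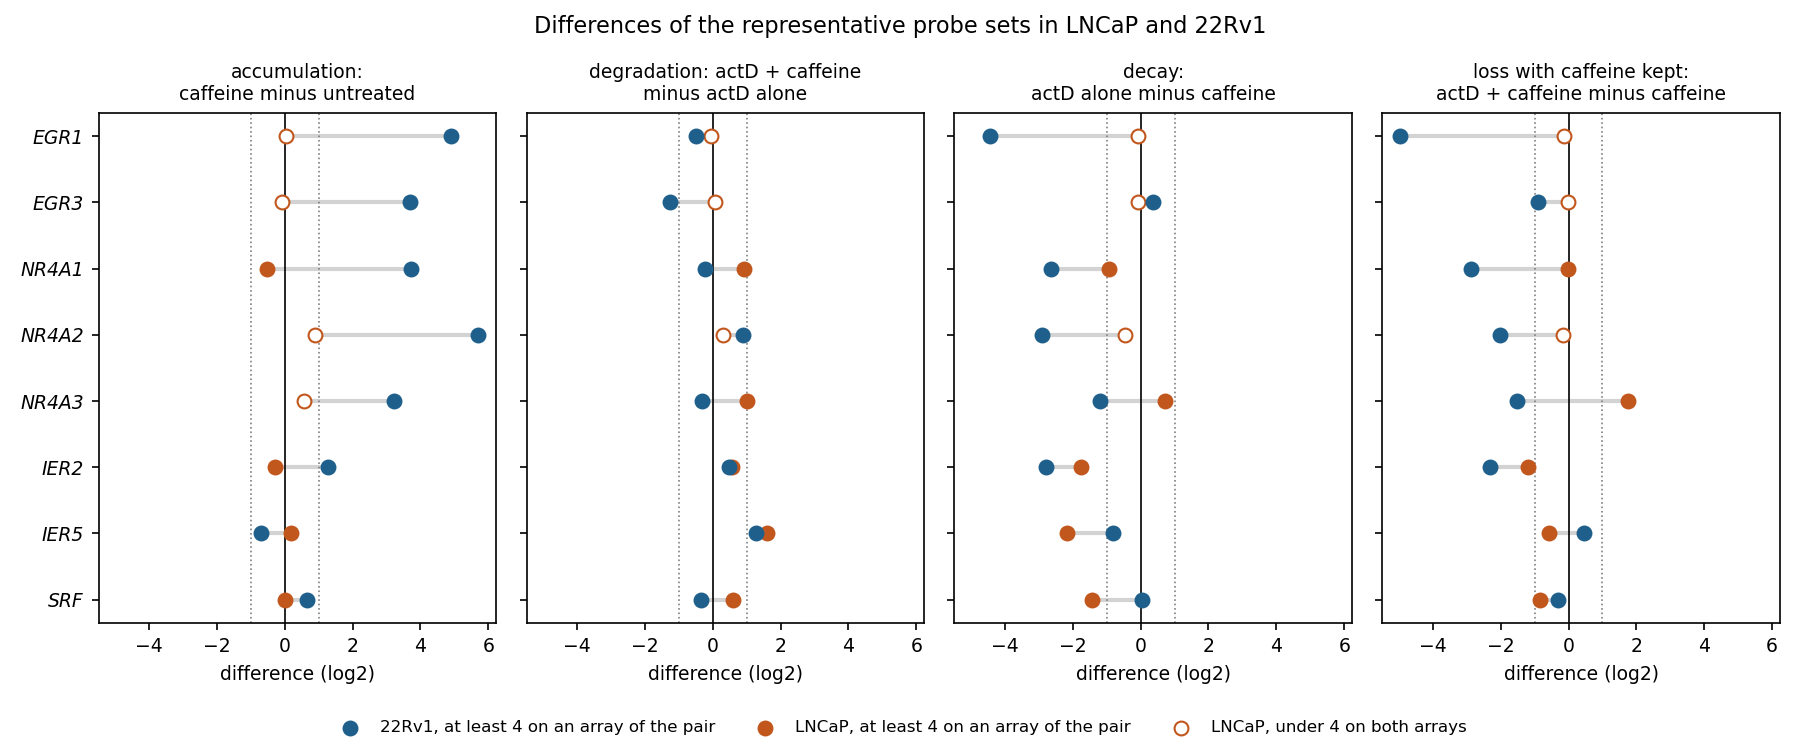
Differences of log2 signals (x axis) of the representative probe sets in 4 comparisons, with LNCaP in orange and 22Rv1 in blue, joined by a grey line, and dotted lines at -1 and 1. Open circles are pairs with both arrays under the floor of 4; EGR1 shows 4.90, -0.50, -4.45 and -4.95 in 22Rv1 from the left panel to the right, and IER5 is past 1 in both lines for degradation, at 1.60 and 1.27.

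The lines differed in the members before any treatment. Untreated LNCaP minus untreated 22Rv1 was -4.00 for EGR1 (-2.95 counted from the floor), -1.31 for IER2, -1.11 for NR4A1, -0.71 for IER5 and -0.44 for SRF. Of 7 detected member probe sets 4 were lower by at least 1, against 19.1% of all detected, and 0 were higher, against 20.3%. Of the 4, 2 were detected through 22Rv1 alone, both for EGR1. Over all treatments, limma gave 7 of the 9 member probe sets as lower in LNCaP and 0 as higher, where 26.3% of all tested probe sets were lower and 27.4% higher. The 3 probe sets that passed the filter through 22Rv1 alone had to be lower and are among the 7, and 4 of the 6 others were lower. The estimates were -1.93 for IER2 (SE 0.27, limma adjusted p = 0.00198), -3.13 for NR4A1 (SE 0.65, limma adjusted p = 0.00893) and -1.44 for SRF (SE 0.34, limma adjusted p = 0.0151). IER5 at -0.64 (SE 0.24, limma adjusted p = 0.0693) and NR4A3 at -1.11 (SE 0.52, limma adjusted p = 0.120) did not pass. Without the actinomycin D array of LNCaP, or without that of 22Rv1, 4 of the 9 were lower, against 4415 of all 21453 tested. The call of SRF was lost without either array of actinomycin D with caffeine, and those of IER2 and the NR4A1 representative held when any 1 of the 8 arrays was left out. The estimates over all treatments hold the high caffeine array of 22Rv1 as well as the untreated gap.

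Genes with the most similar pattern were sought by Pearson correlation of log2 signals over the 8 arrays among 7570 genes. The points share lines and treatments, so a single high array can set a value. For EGR1 these were AHR at 0.97, FOS at 0.97 and NR4A1 at 0.97, and for NR4A1 they were AHR at 0.99, JADE1 at 0.97 and EGR1 at 0.97. FOS, a subunit of the AP-1 factor, read 5.32, 9.01, 4.61 and 4.25 in 22Rv1 and stayed at 2.34 to 2.53 in LNCaP. EGR3 was nearest to PTGS2 at 0.99, the gene of an inducible prostaglandin synthase, with CASP9 and DSCAM-AS1 at 0.98. PTGS2 read 2.60, 6.72, 5.60 and 6.05 in 22Rv1 and, like EGR3, was high on both actinomycin D arrays of that line. NR4A2 was nearest to RAPH1, LRP6 and MSMO1, each at 0.98, and NR4A3 to RAB11FIP1 at 0.95, RHBDD1 at 0.93 and PPP2R5A at 0.93.

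IER2 was nearest to SNRNP35 at 0.98, POGK at 0.97 and XKR8 at 0.96, and SRF to IL1R1 and ZNF512B at 0.99 and ATF7IP2 at 0.98. IER5 was nearest to CIART at 0.96, MRGBP at 0.95 and E4F1 at 0.95, and CIART read 7.91, 7.53 and 4.95 after caffeine, actinomycin D with caffeine and actinomycin D alone in LNCaP. Among the members the closest pairs over the 8 arrays were EGR1 with NR4A1 at 0.97, NR4A1 with NR4A2 at 0.91 and EGR3 with NR4A2 at 0.90. IER5 stood apart, with values from -0.15 with NR4A3 to 0.67 with IER2.

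The other genes of these pathways were described from 5 lists, whose counts after caffeine stand beside the shares given above, 9.23% higher and 7.79% lower in 22Rv1 and 6.36% higher and 5.24% lower in LNCaP. Among family members and partners (EGR4, IER3, IER5L, the EGR corepressors NAB1 and NAB2 and the NR4A partners RXRA, RXRB and RXRG), 6 of 8 genes were detected. After caffeine 2 were higher by at least 1 in 22Rv1, IER3 by 1.33 and NAB1 by 1.09, and 1 was lower in LNCaP, RXRA at -1.01, with medians of 0.62 and -0.22. Of 5 detected SRF cofactors (ELK1, ELK3, ELK4, MRTFA and MRTFB) 0 changed by at least 1 after caffeine, with medians of 0.15 in 22Rv1 and 0.22 in LNCaP. The same was true of the 10 ERK cascade genes with a probe set, with medians of -0.06 and -0.27, and the other 5 listed genes were not analysed here. Among 10 genes of the cAMP and CREB route, CRTC2, a coactivator of CREB, differed by 1.70 in LNCaP and by 0.90 in 22Rv1, CREB1 was higher by 1.09 in LNCaP, and PRKACB, a catalytic subunit of protein kinase A, was lower at -1.11 in 22Rv1. The medians of this list were -0.05 in 22Rv1 and 0.20 in LNCaP.

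Of 5 detected cytoskeletal targets of SRF, TAGLN was higher by 1.10 and ACTA2 lower at -1.78 after caffeine in 22Rv1, and 0 passed 1 in LNCaP. The other 4 listed were under the floor or not analysed here. In limma 0 genes of the 5 lists changed after caffeine, with 0.0420% of all tested probe sets higher. After actinomycin D alone the SRF cofactor MRTFA fell by 1.24 on the log2 scale (SE 0.19, limma adjusted p = 0.0374) and the acetyltransferase gene EP300 by 1.70 (SE 0.27, limma adjusted p = 0.0430). Both calls were lost without the cell line term and with the 4 compared arrays only, where 0 of all 21453 probe sets passed. They were lost without the mean filter, where 4 of 54675 fell. Both were also lost when any 1 of the 8 arrays was left out, where fewer of all probe sets passed too. The call of MRTFA was lost with a variance trend as well, where 562 of 21453 fell. The other tested genes of the 5 lists did not pass there, and 0 passed for degradation or with caffeine kept.

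Between the lines, limma gave differences in each list. Of 6 tested family members and partners, 4 were lower in LNCaP, among them IER5L at -2.40 (SE 0.48, limma adjusted p = 0.00779) and NAB2 at -1.93 (SE 0.27, limma adjusted p = 0.00205), and RXRA was higher by 2.97 (SE 0.18, limma adjusted p = 0.00011). Of 5 SRF cofactors 4 were higher in LNCaP and 0 lower, with ELK3 at 2.32 (SE 0.21, limma adjusted p = 0.000426). Of 10 ERK cascade genes 2 were higher and 1 lower, and of 10 genes of the cAMP and CREB route 2 were higher and 5 lower, with PRKACB higher by 3.44 (SE 0.31, limma adjusted p = 0.000439) and CRTC2 lower at -1.62 (SE 0.19, limma adjusted p = 0.00117). Of 5 cytoskeletal targets 2 were higher and 1 lower, ACTA2 by 2.13 and TAGLN at -2.08. With 1 array left out, the calls of the SRF cofactors ELK4 and MRTFA were lost in all 8 fits, those of EP300, CRTC3 and TPM1 in 6 and that of MRTFB in 4. These shares stand beside the 27.4% of all tested probe sets that were higher and the 26.3% that were lower.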

How the data were processed

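mRNA from 8 plates was measured on Affymetrix U133 Plus 2.0 arrays. The authors background corrected the arrays, quantile normalized them and summarised them per probe set with gcRMA, and deposited log2 signals, which were used as they are. Of these tools, RMA and GCRMA stand in the submitters' processing notes, without versions. The number of arrays, 1 per line and treatment, limits the precision. Groups were taken from the labels.

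Of 54675 probe sets, 41097 have 1 symbol in the array annotation, and 41043 of those were matched to RefSeq genes of GRCh38.p14, with 0 symbols updated. Every member and each of its probe sets is named, the nearest patterns are the 3 genes with the highest r among genes that reach 6 and range over at least 1, and from the lists the genes with the largest differences or a call are named. The members, lists and tests were chosen with earlier results of these data known. limma 3.58.1 (R 4.3.3) was fitted over 8 arrays, with line and treatment as terms, 3 residual degrees of freedom, a prior of 2.93 and Benjamini-Hochberg adjustment over 21453 probe sets, and was tested on simulated data. Alternatives were other filters, floors and cut-offs, variance settings, other probe sets, scaling on 21 poly-A probe sets and leaving out each array. Other values come from python 3.11.15 with pandas 2.3.3 and numpy 2.4.6, and figures from matplotlib 3.10.9.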

Additional observations from a re-analysis of the deposited data

Results flagged for a closer look

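For 2 NR4A genes the lines differed in opposite directions by more than 0.5 each under the same comparison, and with 1 array per line and treatment the difference was not tested. NR4A1 accumulation was -0.51 in LNCaP and 3.71 in 22Rv1, a difference between the lines of 4.22. The LNCaP value was -0.32 with scaling on the poly-A controls and -0.14 for the second probe set 211143_x_at, both within 0.5 of 0. NR4A3 after actinomycin D alone differed from caffeine by 0.72 in LNCaP and -1.19 in 22Rv1 (-1.92 between the lines), and the LNCaP difference was 0.47 counted from the floor, under that limit, and turns with scaling on the poly-A controls. NR4A3 after actinomycin D with caffeine differed from caffeine by 1.74 in LNCaP and -1.52 in 22Rv1 (-3.26 between the lines), with the LNCaP array the one of high 18S rRNA signal.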

How the results depend on the processing

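The count of member probe sets that fell in limma after actinomycin D alone, 1 of 9, became 0 without the mean filter, where 4 of all 54675 fell. It became 0 with robust variances, where 347 of 21453 fell. Without the cell line term and with the 4 compared arrays only it also became 0, and so did the count over all 21453. Without any 1 array the call of IER2 was lost, with estimates of -2.89 to -1.65. With scaling on the poly-A controls the count became 9. That scaling moved all mRNAs down, with 17489 of 21453 probe sets falling. It also gave 6 of 9 for caffeine kept, where 10899 of 21453 probe sets fell. In counts by fold it gave 1 member probe set higher for LNCaP accumulation and 7 lower in LNCaP after actinomycin D alone. It gave 6 lower in LNCaP with caffeine kept, 2 higher for 22Rv1 degradation and 2 lower in untreated LNCaP. The floor was applied there to the scaled signals. The LNCaP counts thus hold probe sets detected only through the raised caffeine array. These were 216248_s_at of NR4A2 and 227404_s_at of EGR1, at 3.27 and 3.60 on that array before scaling. The 7 of 9 lower in LNCaP became 1 of 17 without the filter, 3 of 4 with a mean of at least 6, and 4 to 8 of 9 without 1 array. With scaling on the poly-A controls it became 5 of 9, against 3219 of 21453 probe sets in all. A cut-off of 1.3 gave 1 for LNCaP degradation, 0 for LNCaP with caffeine kept and 0 for 22Rv1 degradation, and a signal of at least 6 gave 1 for LNCaP degradation. The counts by fold under scaling, this cut-off and this signal were taken over member probe sets only. Without the share over all probe sets they cannot show anything particular to the members. Detection in the untreated array, chosen after seeing the data, gave 5 for 22Rv1 accumulation, and detection on both arrays, also chosen then, gave 7 for 22Rv1 after actinomycin D alone and 9 with caffeine kept. Other NR4A3 probe sets, under the floor on the arrays compared, reversed the sign at -0.010 for LNCaP degradation, -0.042 for LNCaP with caffeine kept and 0.022 for 22Rv1 after actinomycin D alone. Of 240 differences of member genes under these settings 206 stayed within the limits set and 31 moved. The cause was not tested. The cell line term pairs the treatments within each line. Without it 0 of 9 member probe sets passed for any treatment comparison, and 0 of all 21453 tested did, so this count is not particular to the members. Array number limits every value, and signals under 4 give bounds.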
